A study of Mus musculus with 24 samples.

Results

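The genes described here encode the MHC class II antigen presentation machinery. They are the α and β chains H2-Aa, H2-Ab1 and H2-Eb1, the invariant chain Cd74, the peptide editor subunits H2-DMa, H2-DMb1 and H2-DMb2, and the transactivator Ciita. They were chosen by symbol, 8 of the 25941 genes in the count table, and where a symbol stood on more than 1 line the line with the most reads was used. Their levels were measured in the thoracic aorta of wild-type adult male C57BL/6 mice, 10 to 12 weeks old, by sequencing of poly(A)-selected RNA. The celecoxib mice ate chow that gave 100 mg/kg/day of celecoxib for 3 weeks, the rofecoxib mice ate chow that gave 50 mg/kg/day of rofecoxib for 3 weeks, and the control mice ate the same chow with no drug. Each group held 8 libraries. All mice, controls included, had received 10 ug/kg of interleukin-1β into the peritoneum 4 h before the aorta was taken at zeitgeber time 11, so no library shows the genes without the cytokine. Celecoxib, a sulfonamide, and rofecoxib, a methylsulfone, both inhibit cyclooxygenase-2. The question was whether either drug diet changed the level of these transcripts in the cytokine-treated vessel.

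MHC class II molecules are pairs of an α and a β chain that carry peptides from engulfed protein to the cell surface, where CD4 T cells read them. The invariant chain fills the peptide groove during assembly, lysosomal proteases cut it down, and the editor H2-DM exchanges the last fragment for antigenic peptide. Transcription of the chains, Cd74 and H2-DM depends on CIITA, a coactivator that binds no DNA itself but sits on a complex of factors over a conserved set of promoter elements called the X and Y boxes. CIITA is made constitutively in dendritic cells and B cells and is induced by interferon-γ in macrophages, endothelium and smooth muscle. In the vessel wall, resident macrophages and dendritic cells are the best known carriers of class II. C57BL/6 mice carry the b haplotype of the locus, which makes no E α chain, so H2-Eb1 has no partner protein in this strain. H2-Ea-ps, the E α pseudogene of this strain, had 3 reads in all 24 libraries.

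RefSeq promoters (build GRCm38.p6) were found for 5 of the 8 genes: H2-Aa, H2-Eb1, H2-DMa, H2-DMb1 and H2-DMb2. The 150 bases before the start site are printed for the 4 genes in which elements of the class II promoter were matched, since these elements are where CIITA acts. The capitals mark TGATTGG, the core of the Y box bound by NF-Y. In H2-Eb1, H2-DMb1 and H2-DMb2 they also mark AAC and TGATG with any 3 bases between them, a core of the X box, and in H2-Aa the element TGACGTCA, a cyclic AMP response element. These letters were chosen after the promoter sequences had been read, and both strands of each promoter, 250 bases before to 50 after the start site, were searched.
H2-Aa, chr17:34287824-34287973, minus strand: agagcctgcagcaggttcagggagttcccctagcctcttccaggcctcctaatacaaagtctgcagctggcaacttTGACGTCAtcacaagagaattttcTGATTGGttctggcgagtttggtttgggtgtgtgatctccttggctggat
H2-Eb1, chr17:34305717-34305866, plus strand: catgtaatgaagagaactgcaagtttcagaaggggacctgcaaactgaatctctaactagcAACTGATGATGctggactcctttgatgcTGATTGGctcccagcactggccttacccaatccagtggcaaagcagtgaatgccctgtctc
H2-DMb1, chr17:34153041-34153190, plus strand: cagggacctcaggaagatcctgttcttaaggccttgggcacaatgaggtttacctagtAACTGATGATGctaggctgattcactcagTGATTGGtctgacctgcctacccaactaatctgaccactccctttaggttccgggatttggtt
H2-DMb2, chr17:34145099-34145248, plus strand: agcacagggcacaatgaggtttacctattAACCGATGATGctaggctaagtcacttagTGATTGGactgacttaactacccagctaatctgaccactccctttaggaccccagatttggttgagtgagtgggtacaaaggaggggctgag

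The Y box core began at position -50 from the start site in H2-Aa, -61 in H2-Eb1, -63 in H2-DMb1 and -92 in H2-DMb2. The X box core lay upstream of it with 17 bases between them in H2-Eb1, 18 in H2-DMb1 and 18 in H2-DMb2. Of the 32851 RefSeq promoters, each of 300 bases, 7.82% held the Y box core, 0.615% the X box core, 1.79% the cyclic AMP response element, and 17 promoters, 0.0517%, held both the X and the Y box core. The 2 stretches listed for H2-DMa, beginning at 34122582 and 34125268, had no match to these letters. That of H2-DMb2 began at 34144999. In the count table, on mm9, H2-DMa begins at 34271925 and H2-DMb2 at 34280050. The 2 stretches thus lie farther from H2-DMb2 than the counted H2-DMa does. The bases next to the start of the counted gene were not searched, so its own elements were not tested.

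In the count table, on mm9, 6 of the genes lie within the class II region of chromosome 17. H2-DMa spans 34271925 to 34276248, H2-DMb2 spans 34280050 to 34288700 and H2-DMb1 spans 34289815 to 34297370. H2-Ab1 spans 34399952 to 34406565, H2-Aa spans 34406074 to 34424974 and H2-Eb1 spans 34442626 to 34453346. The spans of H2-Ab1 and H2-Aa share 491 bases. Whether the counting used strand is not stated, so the source of reads in that stretch is uncertain. H2-DMb1 and H2-DMb2 are near-identical neighbours, and the split of reads between them is uncertain. Ciita lies on chromosome 16 from 10480035 to 10527859. A second, short line for Ciita, within the same span, had 31 reads in all.

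Library totals lay between 21668798 and 21700121 reads. All 8 genes passed the filter on low counts, which left 14528 genes to test. The 8 smooth muscle markers, such as Acta2 and Myh11, summed to between 26091 and 42164 CPM (read counts scaled to a common library size, TMM-adjusted) per library. The 15 macrophage and monocyte markers all passed the filter and summed to 296 to 411 CPM in celecoxib, 291 to 515 CPM in rofecoxib and 349 to 449 CPM in control libraries. Of 10 B cell markers only Cd37, which other leukocytes also express, passed the filter, and the defining markers Cd79a and Ms4a1 had 139 and 98 reads in all libraries together. In bulk tissue a difference in the number of class II-bearing cells and a difference in RNA per cell cannot be told apart. The values describe the tissue as a whole.

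Single libraries stood apart. Rofecoxib replicate 8 was the lowest rofecoxib library for H2-Aa, H2-Ab1, H2-Eb1, H2-DMa and Cd74, at between 0.257 and 0.371 of the group median, but it stood above the group median for Ciita. It also had the lowest summed macrophage markers of all libraries (291 CPM), and its 8 adipocyte markers summed to 953 CPM, where the rofecoxib median was 2950.5 CPM. Control replicate 8 was the highest control library for the 3 chains, Cd74, H2-DMa and H2-DMb1, and its macrophage markers summed to 383 CPM, near the control median of 388 CPM.

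**Figure D1:**
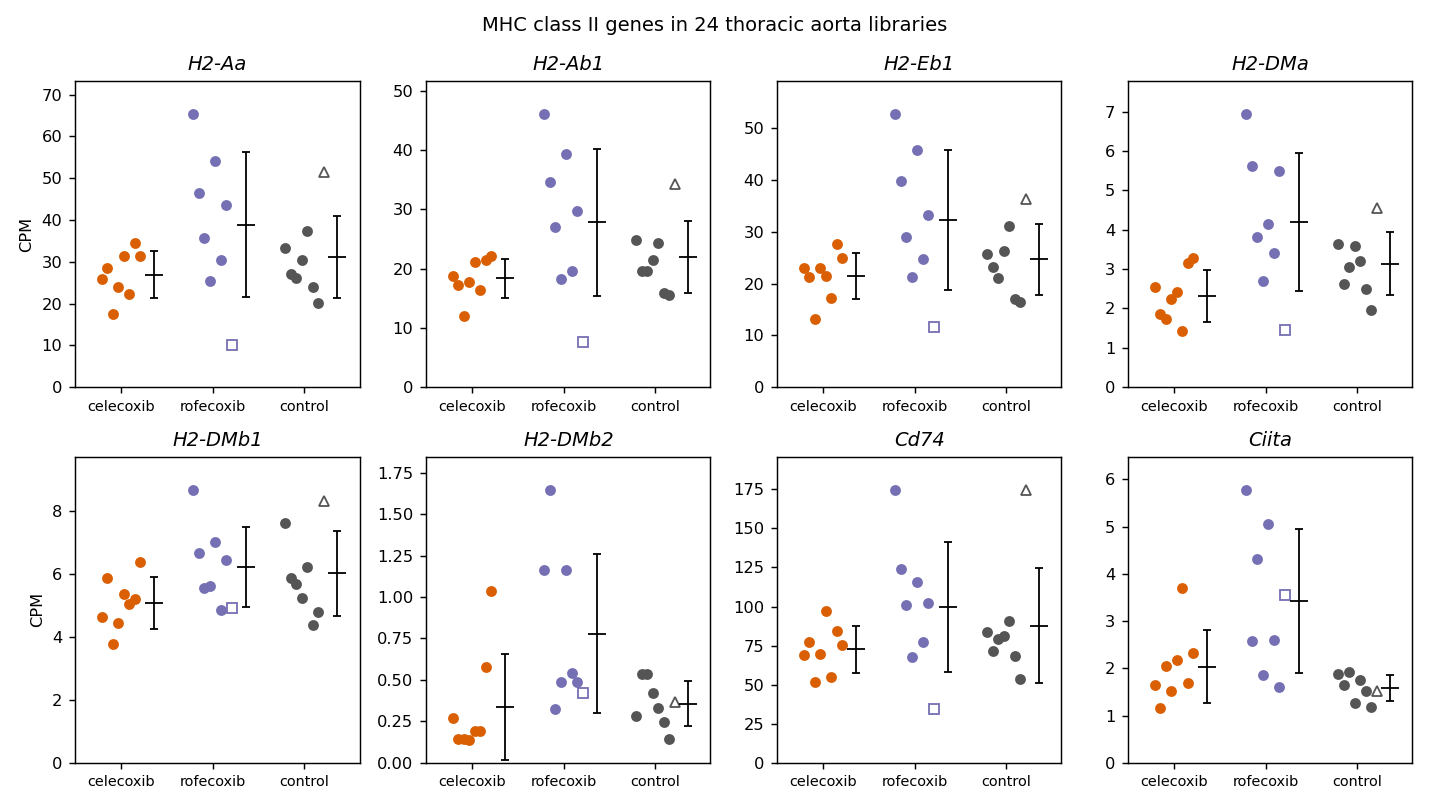
CPM of each MHC class II gene (vertical axis, linear, from 0) in the 8 celecoxib, 8 rofecoxib and 8 control libraries, with the group mean and SD as a bar to the right of the points. The open square is rofecoxib replicate 8, the lowest rofecoxib point for 5 of the genes, and the open triangle is control replicate 8, at 174 CPM for Cd74.

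Levels per transcript length were led by the invariant chain. Per kilobase of the principal transcript in GENCODE M21, Cd74 averaged 51.4 ± 10.6 CPM in celecoxib, 70.7 ± 29.7 CPM in rofecoxib and 62.3 ± 26.0 CPM in control libraries (SD, n = 8 each). In control libraries H2-Aa followed at 27.7 ± 8.71, H2-Ab1 at 18.1 ± 4.98, H2-Eb1 at 14.8 ± 4.08, H2-DMb1 at 4.29 ± 0.963 and H2-DMa at 1.89 ± 0.486 CPM per kilobase. Ciita (0.264 ± 0.0450) and H2-DMb2 (0.251 ± 0.0966) were the lowest. Their ranges of mean ± SD overlapped, as did those of H2-Ab1 and H2-Eb1. The genes were measured in the same libraries, and no paired comparison per kilobase was made. Divided by all annotated exon bases instead, H2-Eb1 came second (12.7 ± 3.50) and H2-Aa, H2-Ab1 and H2-Eb1 were closer together, so the order among the chains depends on the gene model. For all 8 genes the rofecoxib mean was the highest of the 3 group means, and for 7 of 8, all but Ciita, the celecoxib mean was the lowest.

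Among the chains, H2-Aa had a lowest, median and highest value of 17.4, 27.2 and 34.4 CPM in celecoxib, 10.2, 39.6 and 65.4 CPM in rofecoxib and 20.1, 28.7 and 51.6 CPM in control libraries. The rofecoxib libraries were spread over a 6.44-fold range and enclosed all values of the other groups. H2-Ab1, the β chain that pairs with H2-Aa, had 12.0, 18.2 and 22.1 CPM in celecoxib, 7.68, 28.3 and 46.1 CPM in rofecoxib and 15.6, 20.5 and 34.4 CPM in control libraries. H2-Eb1 had 13.2, 22.2 and 27.6 CPM in celecoxib, 11.6, 31.2 and 52.8 CPM in rofecoxib and 16.4, 24.4 and 36.3 CPM in control libraries. For all 3 chains rofecoxib replicates 1, 2 and 5 were the highest rofecoxib libraries, celecoxib replicate 3 was the lowest celecoxib library, and the 3 groups overlapped.

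Cd74, on chromosome 18 from 60963300 to 60972502 (mm9), encodes the invariant chain. Its lowest, median and highest values were 51.7, 72.6 and 97.3 CPM in celecoxib, 34.7, 102 and 175 CPM in rofecoxib and 53.9, 80.0 and 174 CPM in control libraries. The highest control library stood well clear of the other 7, which did not exceed 90.5 CPM, and almost matched the highest rofecoxib library. H2-DMa, the α subunit of the editor, had 1.42, 2.33 and 3.28 CPM in celecoxib, 1.45, 3.98 and 6.95 CPM in rofecoxib and 1.95, 3.13 and 4.55 CPM in control libraries. All 8 celecoxib libraries lay below the rofecoxib median, though only 1 lay below every rofecoxib library.

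H2-DMb1, a β subunit of the editor, varied by 16.2% of its mean in celecoxib, 20.5% in rofecoxib and 22.4% in control libraries. It had 3.77, 5.15 and 6.38 CPM in celecoxib, 4.86, 6.05 and 8.70 CPM in rofecoxib and 4.39, 5.78 and 8.32 CPM in control libraries. H2-DMb2, the other β subunit gene, had 0.137, 0.191 and 1.04 CPM in celecoxib, 0.325, 0.514 and 1.65 CPM in rofecoxib and 0.143, 0.349 and 0.537 CPM in control libraries, on 3 to 37 reads per library. The coefficient of variation of H2-DMb2 in control libraries, 38.5%, was close to the 36.2% that counting alone would give at this depth.

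Ciita had 1.17, 1.87 and 3.69 CPM in celecoxib, 1.59, 3.08 and 5.78 CPM in rofecoxib and 1.19, 1.58 and 1.92 CPM in control libraries. The rofecoxib libraries were all above the control median, and 6 of 8 were above every control library. The share of all tested genes with such an order was not counted. The control libraries varied by 17.1% of their mean, about the 17.2% that counting 25 to 43 reads per library gives, whereas the celecoxib libraries varied by 38% and the rofecoxib libraries by 44.5%, against 15.1% and 11.5% from counting. Rofecoxib replicates 1, 5 and 3 were the highest, at 5.78, 5.05 and 4.31 CPM, and celecoxib replicate 6 stood apart from its group at 3.69 CPM.

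With rofecoxib all 8 genes had log2 fold changes above 0, and only Ciita passed the test. Whether its change differed from those of the other genes was not tested. Ciita averaged 3.42 ± 1.52 CPM in rofecoxib and 1.59 ± 0.270 CPM in control libraries (SD, n = 8 each), a 2.15-fold difference. The log2 fold change was 1.10 (SE 0.25, 95% interval 0.60 to 1.61), with an adjusted p of 0.0152 in edgeR's quasi-likelihood test. The chains, the invariant chain and the editor subunits, which CIITA is known to act on, did not pass. So 1 of 8 genes was called higher and 0 lower, where 3.88% of all 14528 tested genes were called higher, 3.06% lower and 6.94% in either direction.

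The other 7 genes had log2 fold changes above 0 with rofecoxib that missed the threshold. H2-DMb2 had 1.11 (SE 0.41, adjusted p = 0.0864) and rests on few reads. H2-DMa had 0.42 (SE 0.24), with a mean of 4.20 ± 1.76 CPM in rofecoxib and 3.14 ± 0.806 CPM in control libraries. H2-Eb1 had 0.39 (SE 0.23), H2-Ab1 had 0.34 (SE 0.24), H2-Aa had 0.32 (SE 0.25), Cd74 had 0.18 (SE 0.24) and H2-DMb1 had 0.05 (SE 0.14). Their 95% intervals all reached below 0 except that of H2-DMb2 (0.26 to 1.97), and that of Cd74 ran from -0.31 to 0.68. The median over the 8 genes was 0.36, beside a median of 0.02 over all genes tested. At an unadjusted p under 0.05 there were 2 of 8, Ciita and H2-DMb2, where 28.2% of all tested genes passed.

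The call of Ciita did not rest on 1 library. Leaving out each of the 24 libraries in turn gave log2 fold changes from 0.95 to 1.21 and adjusted p-values from 0.00994 to 0.0374, all called. Without rofecoxib replicate 8 it was 1.09 (SE 0.26, adjusted p = 0.0125), while H2-Aa became 0.45, H2-Ab1 0.48, H2-Eb1 0.51, H2-DMa 0.54 and Cd74 0.30, with adjusted p-values between 0.0741 and 0.323. Without control replicate 8, Cd74 was 0.40 (SE 0.22, adjusted p = 0.229). With the macrophage and monocyte level as a covariate Ciita kept its size but missed the threshold, at 1.04 (SE 0.26, adjusted p = 0.0510). With the Cd37 and adipocyte levels as covariates it was 1.17 (SE 0.30, adjusted p = 0.0641). With the macrophage and monocyte covariate 6 of the other 7 genes were below 0, H2-Aa at -0.18, H2-Ab1 at -0.15, H2-Eb1 at -0.055, H2-DMa at -0.059, H2-DMb1 at -0.099 and Cd74 at -0.22, and none passed.

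**Figure D2:**
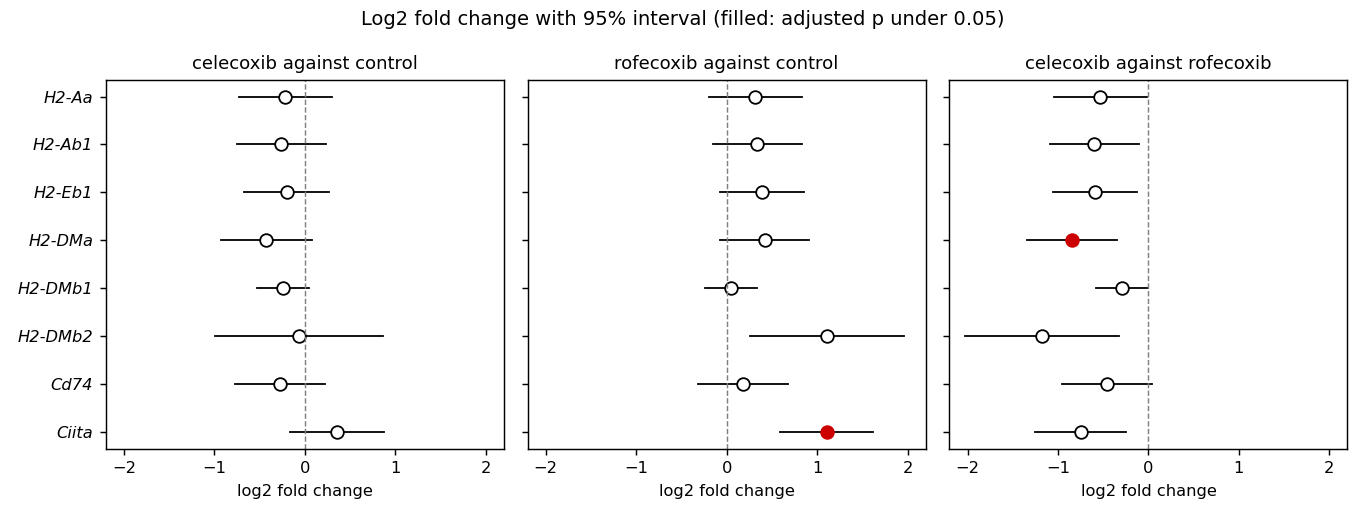
Log2 fold change of each MHC class II gene (points) with its 95% interval (lines) in the 3 comparisons, from edgeR's quasi-likelihood fit on 24 libraries; filled red points passed an adjusted p under 0.05. Ciita passed in rofecoxib against control at 1.10 and H2-DMa in celecoxib against rofecoxib at -0.85.

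With celecoxib no class II gene passed the test. The same 8 control libraries serve both drug comparisons, so the fold changes of the 2 drugs are not independent of each other. Ciita averaged 2.03 ± 0.771 CPM in celecoxib and 1.59 ± 0.270 CPM in control libraries, a log2 fold change of 0.36 (SE 0.25, 95% interval -0.16 to 0.87, adjusted p = 0.536), and of 0.18 without celecoxib replicate 6. Cd74 averaged 72.5 ± 14.9 CPM in celecoxib and 87.8 ± 36.7 CPM in control libraries, a log2 fold change of -0.28 (SE 0.24, adjusted p = 0.619), which became -0.06 (SE 0.22) without control replicate 8. H2-DMa had the lowest log2 fold change of the 8, -0.43 (SE 0.24, 95% interval -0.93 to 0.08, adjusted p = 0.439).

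The chains were at -0.22 (H2-Aa, SE 0.25), -0.26 (H2-Ab1, SE 0.24) and -0.20 (H2-Eb1, SE 0.23) with celecoxib, and H2-DMb1 was at -0.24 (SE 0.14). Without control replicate 8, H2-Aa was at -0.075, H2-Ab1 at -0.14, H2-Eb1 at -0.10 and H2-DMb1 at -0.16. H2-DMb2 was at -0.07 (SE 0.45), with a wide interval from -0.99 to 0.86. With all libraries the adjusted p-values of these 5 genes lay between 0.447 and 0.957. The count of 0 of 8 genes in edgeR's test stands beside 0.0344% of all tested genes called in either direction, 0.00688% higher and 0.0275% lower. At an unadjusted p under 0.05 there were also 0 of 8, where 13.6% of all tested genes passed, limma voom called 0 of 8, and DESeq2 called 0 of the 7 genes it gave an adjusted p, all but H2-DMb2. The median over the 8 genes was -0.23, against 0.00 over all genes tested.

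Set directly against rofecoxib aortas, celecoxib aortas had lower mean levels of all 8 genes, and for H2-DMa the difference passed the test. The daily doses differed, 100 mg/kg for celecoxib and 50 mg/kg for rofecoxib, so this is not a comparison of the drugs at matched exposure. H2-DMa averaged 2.33 ± 0.661 CPM in celecoxib and 4.20 ± 1.76 CPM in rofecoxib libraries, a log2 fold change of -0.85 (SE 0.24, 95% interval -1.35 to -0.35, adjusted p = 0.0443 in edgeR's quasi-likelihood test). This was 1 of 8 genes called lower, beside 4.32% of all tested genes called lower, 0.564% higher and 4.89% in either direction.

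The other 7 genes also lay below 0 in this comparison. Ciita was at -0.75 (SE 0.24, adjusted p = 0.0647) and H2-DMb2 at -1.18 (SE 0.41, adjusted p = 0.0840). H2-Ab1 was at -0.60 (SE 0.24), H2-Eb1 at -0.59 (SE 0.23), H2-Aa at -0.53 (SE 0.25), Cd74 at -0.46 (SE 0.24) and H2-DMb1 at -0.29 (SE 0.14), with adjusted p-values between 0.114 and 0.261. For H2-Aa, H2-Ab1, H2-Eb1, H2-DMa and Cd74 all 8 celecoxib libraries were below the rofecoxib median. These genes varied together from library to library, and the share of all tested genes with such an order was not counted. At an unadjusted p under 0.05 there were 7 of 8, all but Cd74, where 23% of all tested genes passed, and the median was -0.59 against 0.01 over all genes tested.

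The calls in this comparison depended on which libraries were included. Without rofecoxib replicate 8, 5 genes were called lower in celecoxib. They were H2-Ab1 at -0.73 (SE 0.19, adjusted p = 0.0135), H2-Eb1 at -0.71 (adjusted p = 0.0182), H2-Aa at -0.67 (adjusted p = 0.0259), H2-DMa at -0.97 (adjusted p = 0.00696) and H2-DMb2 at -1.26 (adjusted p = 0.0488). Calls also rose over the whole table in that fit, to 1997 of 14615 tested genes in either direction, beside 710 of 14528 with all libraries. When each library was left out in turn, H2-DMa passed in 8 of 24 fits and missed the threshold in 16, with a log2 fold change between -0.97 and -0.71. It passed without celecoxib replicates 1, 7 or 8, rofecoxib replicates 6 or 8, or control replicates 4, 7 or 8. Ciita passed without celecoxib replicate 6 (-0.92, adjusted p = 0.0413) and H2-DMb2 without celecoxib replicate 8 (-1.68, adjusted p = 0.0403). Markers of other cells also differed in this comparison, where 4.32% of all tested genes were called lower. In some other settings 0 genes of the whole table were called, as given below. Of the 15 macrophage and monocyte markers 5 fell, among them Csf1r at -0.65 and Cd68 at -0.72, and 14 of 15 were below 0. Of 8 tested neutrophil markers 6 fell, among them Cxcr2 at -1.81 and S100a8 at -1.53, and of 8 adipocyte markers 6 fell, among them Plin1 at -1.40 and Ucp1 at -1.96. Of 6 tested dendritic cell markers 1 fell and all 6 were below 0, and Cd37 fell at -1.08. None of the tested smooth muscle, endothelial, fibroblast and T cell markers was called. With the macrophage and monocyte level as a covariate H2-DMa was at -0.09 (SE 0.15) and H2-Ab1 at 0.19 (SE 0.18).

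The chains, Cd74 and H2-DMa varied together from library to library, and Ciita varied apart from them. After each gene's log2 CPM was centred on its group mean, the Pearson correlation over 24 libraries was 0.99 between H2-Aa and H2-Ab1, 0.97 between H2-Aa and H2-Eb1 and 0.96 between H2-Aa and Cd74. H2-DMa correlated at 0.89 to 0.91 with the chains and Cd74, H2-DMb1 at 0.76 to 0.77 and H2-DMb2 at 0.45 to 0.58. Ciita correlated at 0.03 to 0.27 with the other 7 genes, and at 0.10 to 0.36 without rofecoxib replicate 8. These correlations are descriptions over libraries that share their normalization, and the lower counts of H2-DMb2 and Ciita limit how high theirs can be. In all libraries together H2-DMb2 had 260 reads, Ciita 1226 and H2-DMa 1689. How far the counts lowered these correlations was not tested.

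The ratio of the α to the β chain was held closely. H2-Aa over H2-Ab1 reads lay between 1.29 and 1.65 in all 24 libraries, while the level of H2-Aa ranged 6.44-fold and that of H2-Ab1 6.01-fold within the rofecoxib group. This ratio varied by 6.65% of its mean, H2-Eb1 over H2-Ab1 by 9.74% and Cd74 over H2-Aa by 11.3%. Ciita over H2-Ab1 varied by 73.4%, from 0.0441 in a control library to 0.463 in rofecoxib replicate 8. In that library the chains were at their lowest while Ciita, at 3.56 CPM, exceeded every control library.

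**Figure D3:**
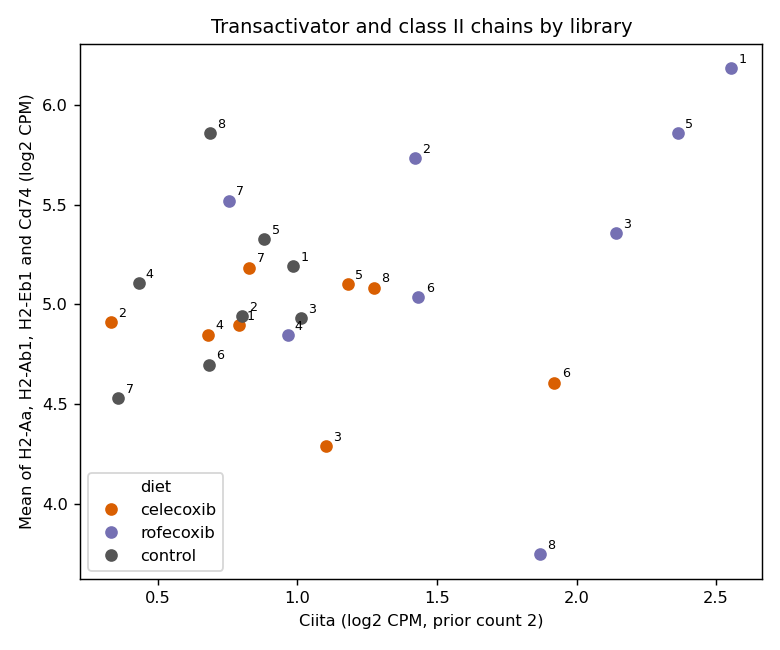
Each point is 1 library, with Ciita on the horizontal axis (log2 CPM) and the mean of H2-Aa, H2-Ab1, H2-Eb1 and Cd74 on the vertical axis (log2 CPM), coloured by diet and numbered by replicate. Rofecoxib replicates 1 and 5 are high on both axes, control replicate 8 is high for the chains only, and rofecoxib replicate 8 is low for the chains with Ciita at 3.56 CPM on the linear scale.

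Across libraries the chains and Cd74 correlated most with macrophage and monocyte markers, and Ciita with genes of interferon-γ signalling. The group-centred mean of H2-Aa, H2-Ab1, H2-Eb1 and Cd74 correlated at 0.82 with the macrophage and monocyte level, 0.74 with the dendritic cell level, 0.68 with the neutrophil level, 0.76 with Cd37, 0.64 with the endothelial, 0.44 with the fibroblast and 0.41 with the adipocyte level, at -0.59 with the smooth muscle level, and at 0.40 with the interferon-γ signalling level. Without rofecoxib replicate 8 the macrophage value was 0.73 and the dendritic cell value 0.58. Ciita correlated at 0.10 with the macrophage and monocyte level, 0.76 with the interferon-γ signalling level, 0.74 with the class I pathway level and 0.67 with the costimulation level.

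**Figure D4:**
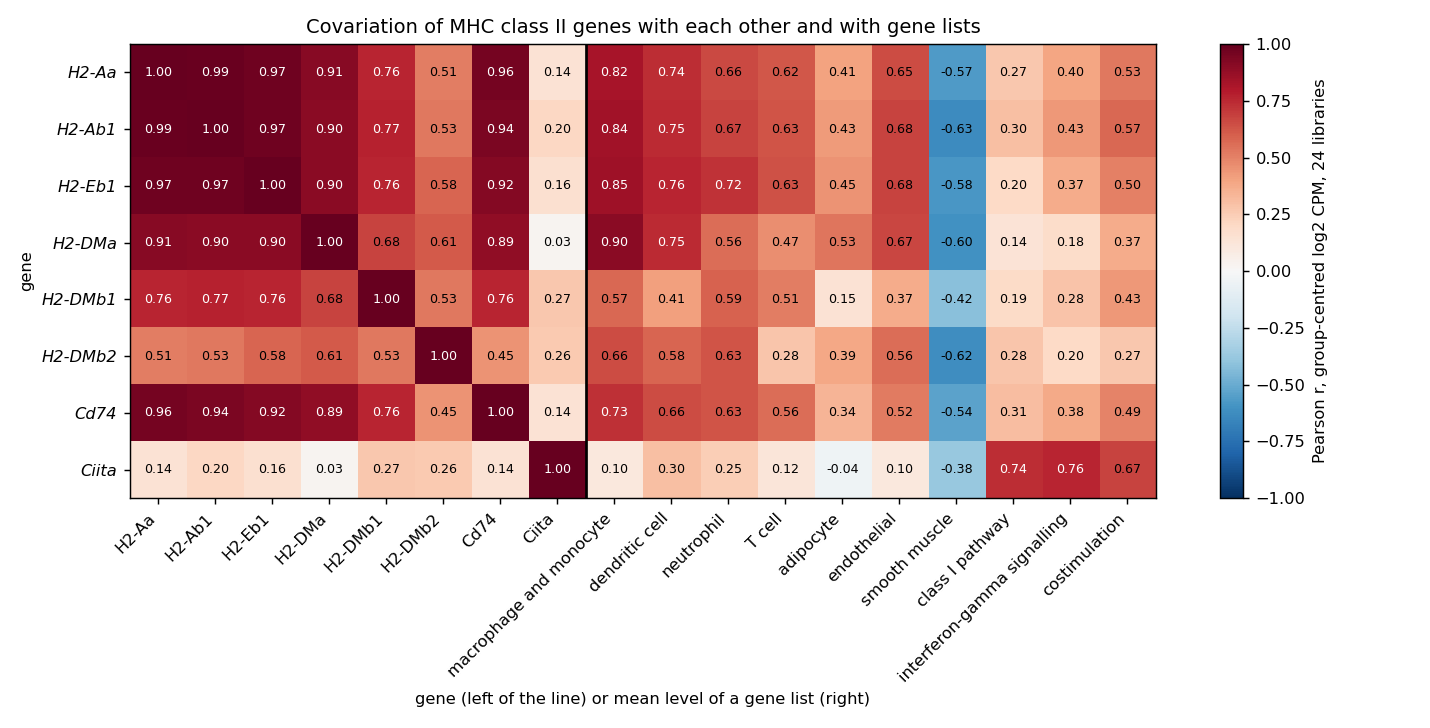
Pearson correlation of group-centred log2 CPM over 24 libraries between the MHC class II genes (left of the line) and between each gene and the mean level of a gene list (right of the line); red is positive and blue negative. The first 3 rows are close to 1 among themselves and 0.82 to 0.85 with macrophage and monocyte markers, and the bottom row, Ciita, is highest with interferon-γ signalling (0.76).

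The genes most like the chains and Cd74, by the same group-centred correlation over 14520 tested genes, were mostly leukocyte genes. Lcp1, an actin-bundling protein of leukocytes, was the closest at 0.92, then Ms4a6c at 0.90, Mpeg1, a perforin-like protein of macrophages, at 0.89, and the chemokine receptor Ccr1 at 0.89. The class I-like gene H2-Q7 (0.87), Cd52 (0.87), the antiviral gene Oas3 (0.87), Lilrb3 (0.86), Ubd (0.85) and the dendritic cell chemokine Ccl17 (0.85) followed. Lcp1 was 37.5 ± 12.5 CPM in rofecoxib and 25.0 ± 3.98 CPM in control libraries and rose with rofecoxib, at a log2 fold change of 0.58 (SE 0.17, adjusted p = 0.0414). The other 9 did not pass in that comparison.

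The genes most like Ciita were others. 2410002F23Rik was the closest at 0.88, then the mitochondrial iron carrier Slc25a28 at 0.85, Cttnbp2 at 0.82, the sodium-proton exchanger Slc9a8 at 0.82 and Fam18a at 0.81. Fam18a lies 32378 bases from Ciita on chromosome 16 in the table. Nearer to Ciita, Dexi (2239 bases) correlated with it at -0.13 and Clec16a (17396 bases) at -0.47. Farther away, Nubp1 (55312 bases) correlated with Ciita at 0.46 and Emp2 (165772 bases) at 0.26. With rofecoxib these 5 had log2 fold changes between -0.11 (Cttnbp2) and 0.13 (Fam18a), and none passed the test.

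The rest of the class II pathway had fold changes with medians near 0. Of 18 further genes of the pathway 15 were tested, and the non-classical chains H2-Oa, H2-Ob and H2-Eb2, with 36, 178 and 10 reads in all, were not. With rofecoxib 0 rose and 1 fell, Ifi30, the lysosomal thiol reductase that unfolds antigen, which averaged 25.5 CPM in rofecoxib and 31.8 CPM in control libraries (log2 fold change -0.32, SE 0.06, adjusted p = 0.00475). The list's median was 0.01. Cathepsin S (Ctss), which makes the last cuts in the invariant chain in dendritic cells and B cells, was at 0.31 (SE 0.20) and 13.2 CPM in rofecoxib against 10.6 CPM in control libraries.

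Rfx5, Rfxap and Rfxank, the subunits of the X box-binding RFX complex, were at -0.24, 0.16 and 0.03 with rofecoxib, and Nfya, Nfyb and Nfyc, the subunits of the Y box-binding NF-Y, at 0.02, -0.02 and -0.02. Creb1, which binds cyclic AMP response elements, was at -0.21 (SE 0.08, adjusted p = 0.0803). With celecoxib against control 0 of the 15 passed in edgeR's test, and 2 had an unadjusted p under 0.05, Ifi30 at -0.14 and Marchf1. Of all tested genes 13.6% passed at that level. Marchf1, the ubiquitin ligase that removes class II from the surface, was at -0.66 (SE 0.21, adjusted p = 0.200), with 1.52 CPM in celecoxib and 2.40 CPM in control libraries. The abundant proteases Ctsb, Ctsd and Ctsl were at 0.00, -0.01 and 0.06. Celecoxib against rofecoxib, 0 of 15 passed and 3 had an unadjusted p under 0.05, Ifi30 at 0.19 (adjusted p = 0.0586), Ctss at -0.53 (SE 0.20, adjusted p = 0.109) and Marchf1 at -0.60 (SE 0.21, adjusted p = 0.0803). In this comparison 23% of all tested genes had an unadjusted p under 0.05.

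**Figure D5:**
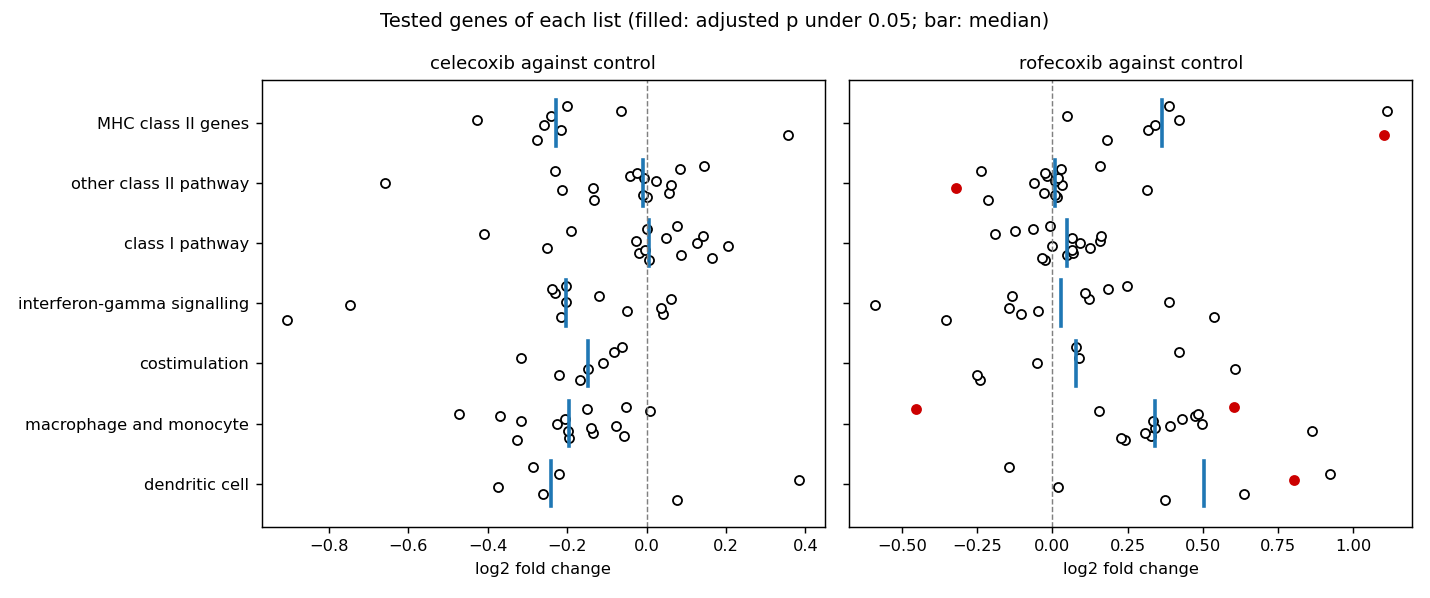
Log2 fold changes of the tested genes of each list (points) with the list's median (blue bar) for celecoxib against control (left) and rofecoxib against control (right); filled red points passed an adjusted p under 0.05. The MHC class II genes have medians of -0.23 and 0.36, and the other class II pathway genes of -0.01 and 0.01.

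The class I pathway, whose transactivator Nlrc5 is a relative of CIITA, had 0 of 15 tested genes called in edgeR's test in any of the 3 comparisons. At an unadjusted p under 0.05 there were 4 with celecoxib against control (Pdia3 at 0.21, Calr at 0.17, Tap1 at -0.41 and Tap2 at -0.19), 0 with rofecoxib against control and 4 with celecoxib against rofecoxib, among them Calr at 0.20 and Nlrc5 at -0.37. Of all tested genes 13.6%, 28.2% and 23% passed at that level in these 3 comparisons, in the same order. Nlrc5 averaged 30.2 CPM in celecoxib, 39.1 CPM in rofecoxib and 35.9 CPM in control libraries, a log2 fold change of 0.12 (SE 0.14) with rofecoxib, against 1.10 for Ciita. The light chain B2m, at 873 CPM in rofecoxib and 888 CPM in control libraries, was at -0.02 (SE 0.07).

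Of 14 interferon-γ signalling genes 12 were tested, and 0 passed in either drug's comparison with control in edgeR's test. At an unadjusted p under 0.05 there were 2 with celecoxib, Irf1 and Cxcl10 (-0.91), and 0 with rofecoxib, where 13.6% and 28.2% of all tested genes passed. Celecoxib against rofecoxib, 1 of the 12 was called lower in edgeR's test, where 4.32% of all tested genes were. At an unadjusted p under 0.05 there were 4 in that comparison, all below 0, where 23% of all tested genes passed. Ifng itself had 6 reads in all libraries together, too few to test. Irf1, which acts on the interferon-γ-responsive promoter of Ciita, was at -0.59 (SE 0.34) with rofecoxib and -0.75 (SE 0.34, adjusted p = 0.338) with celecoxib, the opposite sign to Ciita. The chemokines Cxcl9 and Cxcl10 were at 0.54 (SE 0.27) and -0.35 (SE 0.38) with rofecoxib. Of 7 tested costimulation genes 0 passed in any comparison, and at an unadjusted p under 0.05 there were 0 with celecoxib, 2 with rofecoxib and 2 with celecoxib against rofecoxib. The shares of all tested genes at that level were 13.6%, 28.2% and 23%, as above. Cd86, a ligand of CD28, was at 0.42 (SE 0.19, adjusted p = 0.160) and Cd52 at 0.61 (SE 0.27, adjusted p = 0.148) with rofecoxib.

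Markers of cells that carry class II were set beside the rofecoxib result, where 3.88% of all tested genes were called higher and 3.06% lower. Of 15 macrophage and monocyte markers 1 rose, the mannose receptor Mrc1 at 0.60 (SE 0.17, adjusted p = 0.0325), and 1 fell, the efferocytosis receptor Mertk at -0.45 (SE 0.10, adjusted p = 0.0162), with 14 of 15 above 0 and a median of 0.34. Of 6 tested dendritic cell markers 1 rose, Clec9a, a receptor of cross-presenting dendritic cells, at 1.85 CPM in rofecoxib and 1.06 CPM in control libraries (log2 fold change 0.80, SE 0.23, adjusted p = 0.0348). Itgax, which encodes CD11c, was at 0.92 (SE 0.29, adjusted p = 0.0534), and Flt3, Ccr7, Xcr1 and Siglech, with 74, 94, 84 and 111 reads in all, were not tested. Of 8 adipocyte markers 3 rose with rofecoxib, Lep, Pparg and Fabp4, and of 8 endothelial markers 2 rose, Tek and Kdr. Whether any of these cells has a part in the rise of Ciita was not tested. The covariate fits given above used macrophage and monocyte, Cd37 and adipocyte levels, and none used dendritic cell or endothelial levels. With celecoxib against control 0 of the tested macrophage, dendritic cell, T cell, neutrophil and adipocyte markers passed in edgeR's test, and among them only 5 neutrophil markers had an unadjusted p under 0.05. Of all tested genes 13.6% passed at that level. The macrophage median was -0.20.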

How the data were processed

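The authors deposited read counts per gene, as whole numbers, in 1 table for 24 libraries. The submitters' processing notes name CASAVA 1.8.1, STAR 2.5.1b and mm9; no counter, annotation or strand setting is named. Library totals were nearly equal, and it is not stated whether they were made so or what the depth was before. Gene positions are as the table gives them; whether starts count from 0 or 1 is not stated. Groups and replicate numbers came from the sample titles. The labels do not tie a library to 1 mouse or a pool, so the p-values measure the spread between these libraries. Library construction took 3 days per the labels, and no label ties a library to a day, so day and diet cannot be told apart.

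All genes were tested in R 4.3.3 with edgeR 4.0.16, using TMM scaling, its default filter and a quasi-likelihood fit of group means on all 24 libraries. Tests were two-sided, and p-values were adjusted over 14528 genes by the Benjamini-Hochberg method, with calls at an adjusted p under 0.05. SEs and 95% intervals are from that fit, whose common biological coefficient of variation was 19.6%. CPM values are TMM-scaled, and log2 CPM used a prior count of 2. The level of a list is the mean log2 CPM of its tested genes.

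The class II genes, the gene lists and the tests were chosen with earlier results of these data known. All class II genes are named. From other lists, genes were named from up to 4 called with the smallest p, or otherwise from the most abundant 3 and, in pathway lists, those at an unadjusted p under 0.05; subunits of a complex are given together, and Cd79a and Ms4a1 as defining markers. A few genes of the lists are not reported here. Other settings tried were RLE size factors, scaling by library size only, no low-count filter, a minimum mean of 1 CPM, DESeq2 1.42.0, voom in limma 3.58.1 with sample weights, fits on only the groups compared, a replicate block, marker levels as covariates, a term for replicates 1 to 4 against 5 to 8, and each library left out. Summing H2-DMb1 with H2-DMb2, and both Ciita lines, was chosen after the data were seen. The scripts were tested on simulated counts. Replicates of a group differed from each other by more than counting noise (chi-square over degrees of freedom of at least 8.94 in 84 pairs). Coefficients of variation from counting cover counting error only.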

Additional observations from a re-analysis of the deposited data

Results flagged for a closer look

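Within the 24 sets of 8 libraries formed by the 8 genes and 3 groups, 2 libraries lay far from the rest of their group by Dixon's criterion, which chance meets in about 1 in 20 sets. Cd74 in control replicate 8 was 174 CPM, where the other 7 control libraries lay between 53.9 and 90.5 CPM. That library was also the highest control for H2-Aa (51.6 CPM), H2-Ab1 (34.4 CPM) and H2-Eb1 (36.3 CPM), and its neutrophil markers summed to 92.6 CPM, the highest of the control libraries, where the control median was 39.8 CPM. Ciita in celecoxib replicate 6 was 3.69 CPM, where the other 7 celecoxib libraries lay between 1.17 and 2.33 CPM. The same library had the lowest H2-DMa of all libraries, 1.42 CPM.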

How the results depend on the processing

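The rise of Ciita with rofecoxib passed in 11 of 13 other settings (0.88 to 1.16 on the log2 scale), all but those with marker covariates. Without marker covariates, all 24 fold changes kept their sign in all settings run; among the fits that left out 1 library, H2-DMb2 with celecoxib changed sign in 7 (-0.57 to 0.051) and H2-DMb1 with rofecoxib in 2 (-0.037 to 0.13). The number of class II genes called was 0 with celecoxib in all settings and 1 with rofecoxib, but 0 with either covariate fit. Celecoxib against rofecoxib it was 1, but 2 with DESeq2 and with limma voom, and 0 with no filter, only the groups compared, the replicate block and both covariate fits; leaving out 1 library gave 0 to 5, with 5 without rofecoxib replicate 8.

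With the macrophage covariate the signs turned for H2-Aa (0.082 with celecoxib, -0.18 with rofecoxib, 0.26 celecoxib against rofecoxib), H2-Ab1 (0.034, -0.15 and 0.19 in the same order), H2-Eb1 (0.065, -0.055 and 0.12), Cd74 (-0.22 with rofecoxib, 0.22 celecoxib against rofecoxib), H2-DMb2 (0.15 with celecoxib), H2-DMa (-0.059 with rofecoxib) and H2-DMb1 (-0.099 with rofecoxib). With the Cd37 and adipocyte covariates they turned with celecoxib for H2-Aa (0.45), H2-Ab1 (0.38), H2-Eb1 (0.42), H2-DMa (0.15), H2-DMb1 (0.10), H2-DMb2 (0.76) and Cd74 (0.34), and celecoxib against rofecoxib for H2-Aa (0.27), H2-Ab1 (0.21), H2-Eb1 (0.21), H2-DMa (0.025) and Cd74 (0.22). None of these values passed the test. The covariates were measured in the same libraries and moved with the groups.

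The count of all genes called with celecoxib was 5, but 2 with no filter, 107 with DESeq2, 121 with limma voom, 45 with only the groups compared, 27 with the replicate block, 10 and 25 with the macrophage and the Cd37 and adipocyte covariates and 174 with the replicate-number term; leaving out 1 library gave 0 to 34. With rofecoxib it was 1008, but 557 with no filter, 1796 with DESeq2, 2448 with limma voom, 170 and 39 with the covariates and 1735 with the replicate-number term; leaving out 1 library gave 358 to 1945. Celecoxib against rofecoxib it was 710, but 0 with no filter, only the groups compared, the replicate block and both covariate fits, and 1423 with DESeq2; leaving out 1 library gave 0 to 1997. Among the fits that left out 1 library, the highest counts came without celecoxib replicate 2 (34 with celecoxib) and without rofecoxib replicate 8 (1945 and 1997). Counts of 0 came with celecoxib without celecoxib replicates 7 or 8 or control replicates 3 or 4, and celecoxib against rofecoxib without celecoxib replicates 2 or 3 or rofecoxib replicates 2, 3 or 7, with 1 to 3 without celecoxib replicates 4 or 5 or rofecoxib replicate 4. The causes were not tested.

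Same-numbered libraries correlated at -0.30 to 0.56, with 12 of 24 pairs over 0.1, which does not settle whether replicate numbers pair the libraries. With the replicate block Ciita was at 1.04 with rofecoxib (adjusted p = 0.0141) and H2-DMa at -0.84 celecoxib against rofecoxib (adjusted p = 0.0716). H2-DMb1 and H2-DMb2 summed were at 0.13 (SE 0.15) with rofecoxib. Among the fits that left out 1 library, the lowest count of all genes called with rofecoxib, 358, came without control replicate 2. H2-DMb2, at 3 to 37 reads per library, is limited by depth.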
